A study of Mus musculus with 9 samples.

Results

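Ceacam1, Nt5e, Vtcn1 and Btn2a2 are 4 genes for cell-surface proteins that restrain immune cells, and their RNA was followed here in organoids of mouse esophageal epithelium, small rounded bodies grown in culture. They were picked by symbol from the 8742 genes that the authors list as changed in at least 1 of 3 comparisons, so their differences between groups are given as a description and carry no test. RNA was taken on day 7 after seeding from 9 organoid libraries, 3 a group, none of them treated. WT stands for wild type by label, PN for a knockout of Trp53 together with Notch1, and PCN for a knockout of Trp53, Cdkn2a and Notch1. The labels do not say how the knockouts were made, whether each line is 1 clone, or whether libraries that share a label were grown separately, so every p-value below measures only the spread between these libraries.

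Immune checkpoints are receptor and ligand pairs through which a cell can dampen T cells or natural killer (NK) cells. Ceacam1 is an adhesion protein that binds itself and other CEACAM proteins on neighbouring cells and carries inhibitory signalling motifs in its long isoforms. Nt5e encodes CD73, the surface enzyme that turns AMP into adenosine, which quiets T cells through its receptors. Vtcn1 encodes B7-H4 (also called B7x), a member of the B7 family that inhibits T cells through a receptor that has not been firmly identified, and Btn2a2 is a butyrophilin, a relative of the B7 proteins that inhibits T cell activation in mice. Epithelial cells of several organs carry Ceacam1 on their surface, and stratified epithelia renew themselves from basal cells that differentiate as they move outward.

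The 4 genes lie on 4 chromosomes of the GRCm38 assembly. Ceacam1 (ENSMUSG00000074272) occupies chr7:25461707-25477603 on the minus strand, Nt5e (ENSMUSG00000032420) chr9:88327197-88372092 on the plus strand, Vtcn1 (ENSMUSG00000051076) chr3:100825459-100896922 on the plus strand and Btn2a2 (ENSMUSG00000053216) chr13:23477676-23488857 on the minus strand. The 250 bases before the RefSeq start of 3 of them (GRCm38.p6) are shown because the genes were low together in both edited groups. Capitals mark matches to the motifs searched, on either strand. The windows are chr7:25477626-25477875 (minus strand) for Ceacam1, chr3:100825209-100825458 (plus strand) for Vtcn1 and chr13:23488858-23489107 (minus strand) for Btn2a2.
Ceacam1: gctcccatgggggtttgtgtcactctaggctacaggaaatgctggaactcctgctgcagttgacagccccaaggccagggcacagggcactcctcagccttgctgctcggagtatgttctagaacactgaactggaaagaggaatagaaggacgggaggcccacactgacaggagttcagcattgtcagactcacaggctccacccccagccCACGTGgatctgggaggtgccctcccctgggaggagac
Vtcn1: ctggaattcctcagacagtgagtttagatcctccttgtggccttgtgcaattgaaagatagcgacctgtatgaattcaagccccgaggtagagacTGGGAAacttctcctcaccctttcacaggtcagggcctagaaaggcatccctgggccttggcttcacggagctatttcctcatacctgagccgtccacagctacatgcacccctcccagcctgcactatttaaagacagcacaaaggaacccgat
Btn2a2: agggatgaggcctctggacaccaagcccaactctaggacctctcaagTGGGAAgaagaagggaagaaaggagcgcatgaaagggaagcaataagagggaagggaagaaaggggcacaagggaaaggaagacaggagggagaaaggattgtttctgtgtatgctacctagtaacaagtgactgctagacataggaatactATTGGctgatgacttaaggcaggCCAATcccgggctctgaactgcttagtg

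No motif searched was found before all of the genes. TGGGAA, the core bound by RBPJ, the DNA-binding partner of Notch, had 1 match in Vtcn1 and 1 in Btn2a2, and 21.6% of 32536 promoter windows of the same length hold it. The Ceacam1 window held CACGTG, which contains the hypoxia response core ACGTG on both strands as 2 overlapping matches (16.7% of windows hold ACGTG). Btn2a2 had 2 matches to CCAAT (33.8% of windows). The corresponding Nt5e window lies inside the first exon of the gene model used by the authors and is not printed. It held 4 matches to the GC box GGGCGG (33% of windows), in overlapping pairs. The grainyhead motif AACNGGTT (1.79% of windows) and the promoter element TATAAA (12.3%) had no match in the 4 windows. The AP-1 site, a palindrome searched as TGA, any base, then its reverse complement (6.73%), and the p53 decamer (7.12%) had none either. GC content was 72% for Nt5e, 58.8% for Ceacam1, 51.6% for Vtcn1 and 49.6% for Btn2a2, against a median of 52.4%.

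Across the series, the library sizes that stand behind the deposited FPKM values (fragments scaled by gene length and library size) spanned 14695420 to 15093994 for WT, 16857744 to 18912526 for PN and 17422590 to 20198041 for PCN, and CPM below means counts scaled to a size of 1000000. Trp53 RNA ranged over 118.2 to 121.3 CPM in the WT libraries and 2.27 to 3.96 in the 6 edited ones. Notch1 RNA ranged over 213.0 to 276.8 CPM for WT, 140.5 to 153.9 for PN and 66.5 to 76.9 for PCN. Cdkn2a RNA spanned 6.49 to 10.3 CPM for WT, 21.5 to 22.7 for PN and 62.4 to 70.2 for PCN, so the library label PCN, which names a Cdkn2a knockout, went with more of its RNA. RNA level does not show whether a knockout removed the protein. The organoids carried epithelial markers: the 11 basal genes present in all libraries had summed levels of 8445 to 9348 CPM in WT. Of the basal genes on the list 16 of 16 had values, which says only that the authors called each as changed in some comparison.

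Ceacam1 had the highest level per length of the 4 genes in every group. Its counts in the 3 WT libraries were 6603, 7640 and 7764, which is 76.0, 89.5 and 88.6 FPKM. The PN libraries held 323, 385 and 530 counts (3.30, 3.91 and 4.83 FPKM), and those labelled PCN held 922, 665 and 838 (7.86, 6.57 and 7.75 FPKM). The 3 groups did not overlap: WT was highest, PCN lay between, and PN was lowest. Group means were 491.8 ± 44.0 CPM for WT, 23.3 ± 4.46 for PN and 42.9 ± 4.14 for PCN (SD, n = 3 each). The PN and PCN libraries were 1.36-fold apart at the nearest pair, against 15.7-fold and 9.66-fold between WT and each of them. PN stood at 4.74% of WT and PCN at 8.73%, or log2 ratios of -4.40 and -3.52. Between the edited groups PCN was 1.84 times PN.

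The Ceacam1 count has a limit of identity. Of the 6044 distinct 50-base windows in its 11 annotated transcripts, 29.6% also occur in transcripts of its neighbour Ceacam2. The authors' counting could have split reads from those windows between the genes. Ceacam2 itself held 3, 25 and 22 counts in WT, 0 in all 3 PN libraries and 4 over the PCN libraries, and at a floor of 3 counts over a group PN was at least 19.6-fold lower than WT. An antisense gene, 4732471J01Rik, overlaps Ceacam1 on the other strand, with 16, 22 and 11 counts in WT and 4, 2 and 2 in PN. Whether the counting used strand is not given in the sources used here, so reads of Ceacam1 and of this gene cannot be told apart where they overlap. The other 3 genes shared at most 0.128% of their windows.

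Nt5e was abundant enough in WT to be counted well and nearly absent in the edited organoids. The WT libraries held 601, 620 and 707 counts (4.67, 4.91 and 5.45 FPKM). The PN libraries held 10, 15 and 17 counts (0.0690, 0.103 and 0.105 FPKM), and the PCN libraries 19, 23 and 20 (0.109, 0.154 and 0.125 FPKM). Every WT library lay above every edited one, by a gap of 30.4-fold or more at the nearest pair. The WT mean was 54.4 times the PN mean, with an exact 95% counting interval of 39.9 to 75.3, and 38.7 times the PCN mean (30.3 to 51.2). Such intervals cover counting error only. PN and PCN did not overlap but were separated by 1.05-fold at the nearest pair, and the counting interval of their ratio, 0.921 to 2.10, includes 1.

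Vtcn1 was the lowest of the 4 in WT and the most uneven there. Its WT libraries held 79, 61 and 123 counts (2.01, 1.58 and 3.11 FPKM), an SD of 2.06 CPM on a mean of 5.86. The PN libraries held 17, 7 and 19 counts (0.385, 0.157 and 0.383 FPKM) and the PCN libraries 15, 9 and 13 (0.283, 0.197 and 0.266 FPKM). All edited libraries were below all WT libraries, and PN and PCN overlapped. WT was 7.25 times PN (counting interval 5.21 to 10.2) and 8.98 times PCN (6.31 to 12.97). Of the 4 genes Vtcn1 had the group means nearest to WT, at 13.8% of the WT mean in PN and 11.1% in PCN. For PCN its counting interval includes the Ceacam1 ratio of WT to PCN, 11.45, so the order of Vtcn1 and Ceacam1 there is not settled.

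Btn2a2 was down to a few counts a library in the edited organoids. The WT libraries held 105, 139 and 147 counts (2.96, 3.99 and 4.11 FPKM), the PN libraries 4, 4 and 5 (0.100, 0.0994 and 0.112 FPKM) and the PCN libraries 1, 3 and 2 (0.0209, 0.0727 and 0.0453 FPKM). WT was 35.6 times PN (counting interval 20.5 to 67.2) and 79.6 times PCN (37.3 to 224.5). PCN lay below PN in every library, but on 6 counts against 13, and the interval of that ratio, 0.135 to 1.22, includes 1.

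**Figure D1:**
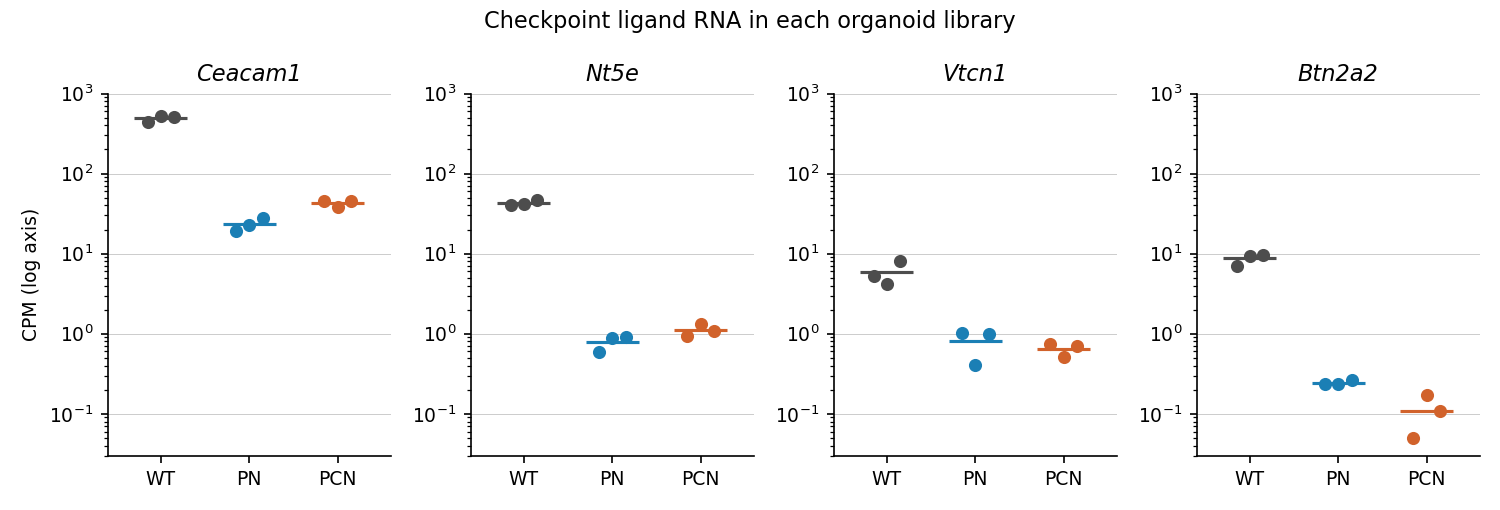
CPM of Ceacam1, Nt5e, Vtcn1 and Btn2a2 in each of the 9 libraries on a shared log axis, with points for libraries and a line for the group mean. Every WT point lies above every PN and PCN point in each panel, and Ceacam1 separates PN (19.2 to 28.02 CPM) from PCN (38.2 to 45.7 CPM).

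In the authors' deposited tables all 4 genes are listed as lower than WT in both edited groups, where 19.9% of the 17165 genes they adjusted over are listed as lower (18.2% as higher) in PN and 20.2% of 17300 (18.4% as higher) in PCN. Nothing is read from that count, since these tables chose the genes. The comparisons share the 3 WT libraries. By size of fold change among the genes listed as lower, Nt5e ranked 54 of 3413 in PN and 81 of 3488 in PCN, Btn2a2 100 and 32, Ceacam1 178 and 308, and Vtcn1 462 and 377. Against PN, the authors list Ceacam1 alone of the 4 as changed in PCN, with a log2 fold change of 0.88 (adjusted p = 2.4e-11 in the authors' deposited table), where 12.6% of 14758 genes are listed as higher and 11.8% as lower. The largest adjusted p of the 4 genes against WT in the authors' deposited table was 1.2e-10, for Vtcn1 in PN. None of these p-values is used as support, since only genes with an adjusted p under 0.05 could be picked. Each table stops at an adjusted p of 0.05, so the authors' p-values of genes just outside that limit were not used here.

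In bulk RNA, fewer cells of a type and less RNA per cell cannot be told apart. Squamous differentiation genes, which the outer layers of the esophagus use, moved with the 4 ligands. Of 34 such genes 29 had values, and of those fitted with edgeR 23 of 25 were lower and 2 higher in PN, and 25 of 27 lower and 2 higher in PCN. The median log2 fold change was -2.57 in PN and -2.36 in PCN, against -0.26 and -0.28 for all listed genes fitted. Over the 28 present in all libraries, their summed level reached 42200 to 45900 CPM for WT, 6981 to 7337 for PN and 7647 to 8075 for PCN. Mal, a membrane protein of differentiating epithelia, fell from 617.6 to 16.0 CPM in PN (log2 fold change -5.26 ± 0.08 SE, edgeR adjusted p = 4.8e-13) and to 23.5 in PCN. Scel and Tgm3, which build the cornified envelope, fell from 166.9 to 4.40 and from 282.6 to 9.35 CPM in PN. In PCN they stood at 9.64 and 9.36 CPM, and Scel was higher there than in PN (log2 fold change 1.13). Scel lies on chromosome 14, where 93.8% of the genes called in PN against WT were lower, against 51.6% over all chromosomes, and 51.4% of those called in PCN. The part of this change in the levels of the 4 ligands was not tested.

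Basal genes did not move one way. In PN 3 of 9 fitted genes were higher and 5 lower, and in PCN 7 of 12 were higher and 4 lower. Over all genes called by edgeR, 51.6% were lower in PN and 52.1% in PCN. Only genes that the authors listed could be fitted, so nothing more is read from these counts. The 11 basal genes present in all libraries summed to 8531 to 8648 CPM for PN and 10310 to 10830 for PCN. Itga6 and Itgb4, the chains of the integrin that anchors basal cells, were lower in PN, at 626.5 against 909.0 CPM and 980.5 against 1320 CPM. Krt15, a basal keratin, rose from 300.4 CPM to 730.9 (PN) and 1644 (PCN). Trp63, the master transcription factor of stratified epithelia, rose from 485.6 to 697.8 and 649.1 CPM. Of 18 leukocyte markers 1 had values, the lysosomal gene Cd68, with 94.0 to 119.5 CPM for WT, 23.8 to 27.0 for PN and 15.04 to 16.9 for PCN. None of 9 fibroblast markers and none of 8 muscle and glia markers had values, and 1 of 8 endothelial (Esam) and 1 of 7 ciliated airway markers (Cfap43) did. Both were lower than WT in PN and PCN, Esam by log2 fold changes of -0.84 and -0.85, calls lost when single libraries were left out, and Cfap43 by -0.84 and -0.67. A gene without values was not called as changed by the authors, which says nothing about its level. The part of these markers in the result was not tested.

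The 4 genes belong to a list of 27 immune checkpoint ligands, of which 11 others had values. The edgeR fits called 18.8% of 17165 genes lower and 17.6% higher in PN, so that 51.6% of the genes called were lower. Of the 7 other ligands fitted there, all from among listed genes, 6 were lower and 1 higher. In PCN 19% of 17300 genes were called lower and 17.5% higher, and 52.1% of the genes called were lower. Of the 9 other ligands fitted there, 6 were lower and 3 higher. The median log2 fold change of these others was -1.17 in PN and -1.01 in PCN. These tables hold only genes already called as changed, so the refit is not independent evidence.

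Among the other ligands that were lower, Btn1a1, a butyrophilin best known from the milk fat globule, fell furthest. The means were 47.6 ± 2.23 CPM for WT, 2.79 ± 0.341 for PN and 0.883 ± 0.332 for PCN (SD, n = 3). The log2 fold change was -4.08 ± 0.13 in PN (SE, edgeR adjusted p = 7.9e-11) and -5.75 ± 0.18 in PCN (adjusted p = 1.8e-11). It was also lower in PCN than in PN, by a log2 fold change of -1.67 ± 0.30 (edgeR adjusted p = 5.0e-05). Nectin4, an adhesion protein that binds the inhibitory receptor TIGIT, fell from 165.7 to 28.6 CPM in PN and 30.9 in PCN. Lgals3, the secreted lectin galectin-3, fell from 309.7 ± 84.4 CPM to 53.8 and 45.2. Lgals3, like Scel, lies on chromosome 14. On the chromosomes of the 4 ligand genes, 7, 9, 3 and 13, the share of called genes that were lower was 53.5%, 53.2%, 61.8% and 50.7% in PN. Nectin2 fell from 67.6 to 29.8 and 33.8 CPM, Cd24a from 359.7 to 161.0 and 146.8, and H2-T23, the Qa-1 molecule read by NK cells, from 87.4 to 49.8 and 43.3. All 6 were called in both comparisons with WT.

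Against WT, ligands that were higher formed the minority. Nectin3, an adhesion partner of the other nectins, rose from a WT mean of 1.45 CPM to 6.61 in PN (log2 fold change 2.19 ± 0.28 SE, edgeR adjusted p = 3.4e-05) and 4.09 in PCN (1.5 ± 0.29, adjusted p = 7.6e-04). Icosl, the ligand of the T cell costimulatory receptor ICOS, had 7.81 ± 1.38 CPM for WT, 8.32 ± 1.71 for PN and 15.7 ± 0.143 for PCN, and rose in PCN against both WT (log2 fold change 1.01) and PN (0.92). Cd276, the B7-H3 gene, was 32.2, 35.5 and 44.5 CPM and rose in PCN against both. Cd47, which tells macrophages not to engulf a cell, rose from 90.3 CPM in PN to 104.4 in PCN. Tnfrsf14 had 3 counts over PN and 30 over PCN, a ratio of 9.38 (counting interval 2.92 to 48.0). In PCN against PN the edgeR fit called 12.3% of 14758 genes higher and 11.5% lower, and 48.4% of the genes called were lower. Of the 6 other ligands fitted there, 3 were higher and 3 lower. The lower ones were Btn1a1, Lgals3 and Nectin3, and the Nectin3 call was lost without PN replicate 3 (edgeR adjusted p = 0.16) or PCN replicate 3 (0.088).

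**Figure D2:**
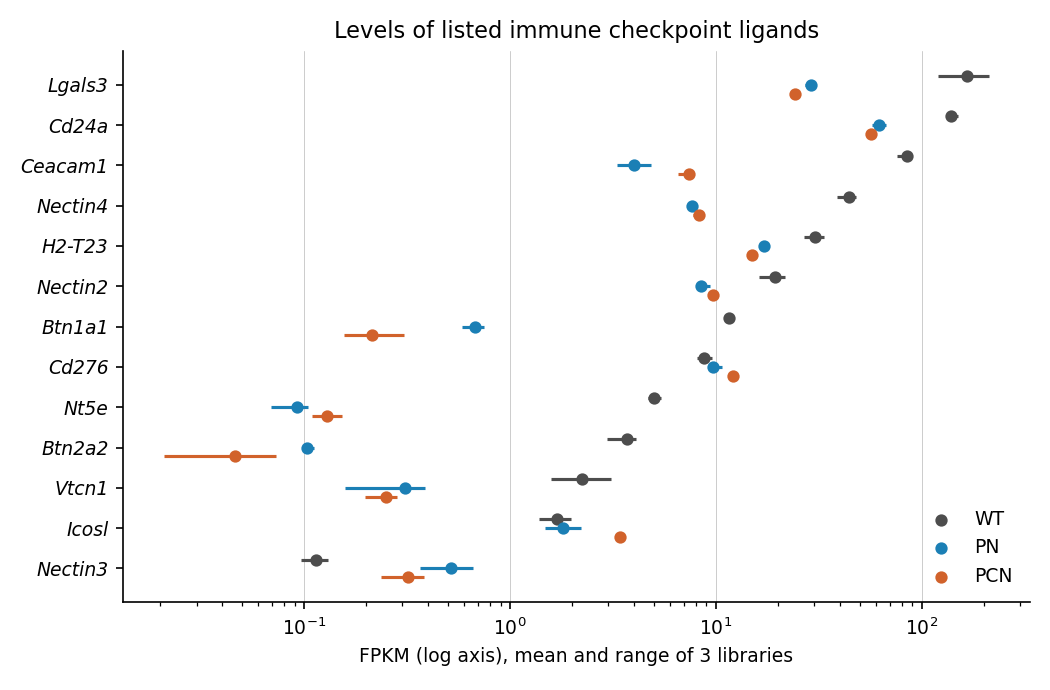
FPKM of the 13 checkpoint ligands with values in all 9 libraries, on a log axis, with points for group means and lines for the range of the 3 libraries. Lgals3, Cd24a and Ceacam1 lead in WT, and Ceacam1 moves from rank 3 of 13 in WT to rank 7 in PN and PCN, while Nt5e moves from rank 9 to 13 and 12.

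Per length in WT, Ceacam1 stood at rank 3 of the 13 and the others of the 4 genes in the lower part of the list. Ceacam1 at 84.7 ± 7.58 FPKM came after Lgals3 (166.7 ± 45.4) and Cd24a (139.4 ± 9.11), whose WT ranges overlap. Nt5e (5.01 ± 0.399), Btn2a2 (3.69 ± 0.633) and Vtcn1 (2.24 ± 0.786) stood at ranks 9 to 11, and the ranges of Btn2a2 and Vtcn1 overlapped. In PN the 3 lowest of the 13 were Vtcn1 (0.308 FPKM), Btn2a2 (0.104) and Nt5e (0.0921), and the ranges of Btn2a2 and Nt5e overlapped. The Vtcn1 range (0.157 to 0.385) also overlapped that of Nectin3 (0.365 to 0.664), the next gene up. In PCN Vtcn1 (0.249), Btn1a1 (0.214), Nt5e (0.129) and Btn2a2 (0.0463) were lowest. The ranges of Vtcn1, Btn1a1 and Nectin3 overlapped there, and Btn2a2 was below Nt5e in every library.

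Around CD73, other genes of extracellular ATP and adenosine moved in both directions. Of 28 genes on that list 18 had values. Leaving out Nt5e, 7 of 10 fitted genes were lower and 3 higher in PN, with a median log2 fold change of -1.36. In PCN 7 of 13 were lower and 6 higher, with a median of -0.52. Over all genes called by edgeR, 51.6% were lower in PN and 52.1% in PCN, so the PCN count is close to that share. Entpd2 and Entpd3, which break down extracellular ATP before CD73 acts, were lower: Entpd3 went from 88.4 CPM to 17.4 (PN) and 11.2 (PCN), and Entpd2 from 13.3 to 5.46 and 6.32. Enpp1, which also turns extracellular ATP into AMP, was higher in both, at 216.7 CPM for WT, 276.1 for PN and 318.3 for PCN (log2 fold changes 0.36 and 0.56). Ada, which removes adenosine, was lower as well, at 163.0, 59.3 and 70.5 CPM. P2ry2, a receptor for ATP and UTP, fell from 41.9 to 4.98 CPM in PN (log2 fold change -3.06 ± 0.13 SE, edgeR adjusted p = 1.6e-09) and to 9.60 in PCN. P2rx7, the ATP-gated channel of inflammation, rose from 4.34 to 22.3 CPM in PN (2.37 ± 0.15, adjusted p = 4.7e-08) and to 12.6 in PCN. Slc28a3, a nucleoside importer, fell from 2.59 to 0.110 CPM in PN and 0.399 in PCN. Slc29a1, the equilibrative nucleoside transporter, rose from 28.3 to 45.6 and 44.0 CPM.

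**Figure D3:**
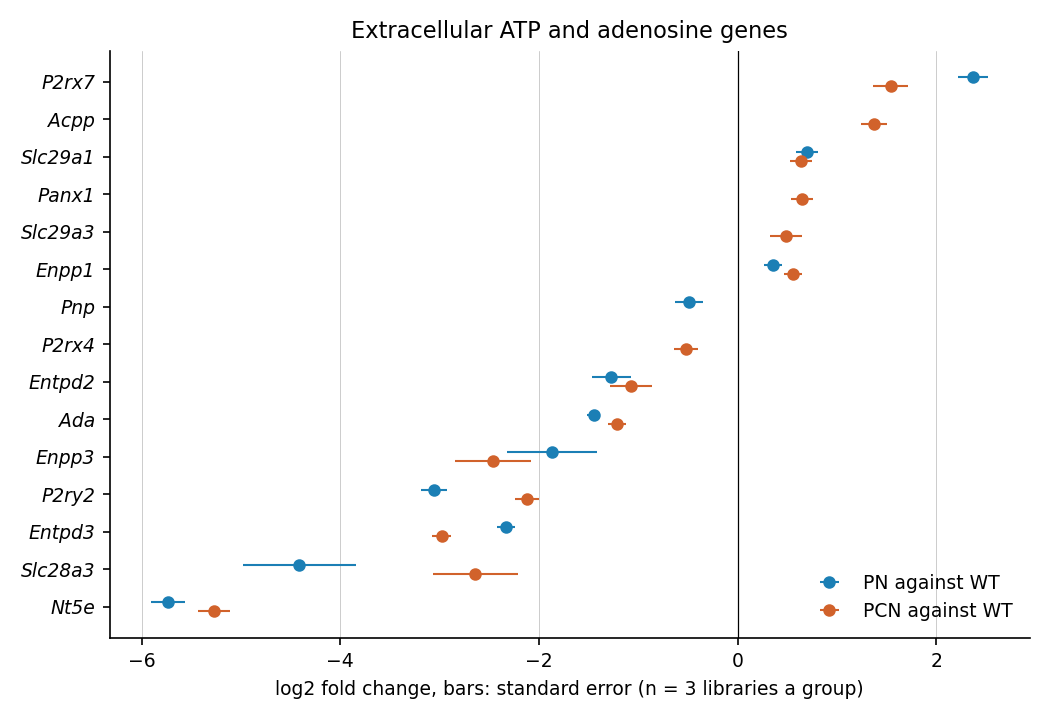
Fitted log2 fold changes of Nt5e and the other listed genes of extracellular ATP and adenosine in PN and PCN against the shared WT libraries, with bars for the standard error. Nt5e lies lowest, but it was picked from these same listed genes, so its point is a description and carries no test. Among the other genes P2rx7 is highest, at 2.37 in PN.

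Signalling partners and receptors of the other ligands varied. Of the CEACAM list, 7 of 20 genes had values. Ptpn11, the SHP-2 phosphatase that docks to the long Ceacam1 tail, rose from 142.2 to 186.4 CPM in PN and 178.4 in PCN. Lyn, a Src-family kinase, fell from 5.03 to 1.14 CPM in PN and was higher in PCN, at 3.80, than in PN. In the wider B7 and butyrophilin list 7 of 29 had values, and Skint3, a mouse gene whose relative Skint1 shapes skin T cells, fell from 14.01 to 0.914 and 1.34 CPM. Of 17 receptors of checkpoint ligands 2 had values. Sirpa, the receptor of Cd47, had 5.32 ± 0.383 CPM for WT, 2.86 ± 0.951 for PN and 27.1 ± 1.60 for PCN, and rose in PCN against both other groups, by log2 fold changes of 2.35 ± 0.13 and 3.25 ± 0.15 (SE, edgeR adjusted p = 5.9e-09 and 2.6e-15). Its lower value in PN than in WT passed at an edgeR adjusted p of 0.013 but was lost without PN replicate 3 (0.060) or WT replicate 2 (0.050).

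Ligands that activate NK and T cells were measured from the same libraries, and 7 of 25 had values. Ulbp1, a ligand of the NK receptor NKG2D, rose from 34.1 CPM to 55.2 (PN) and 115.6 (PCN), and the 3 groups were called different from each other. Raet1e, another NKG2D ligand, had 10.3 CPM for WT, 3.71 for PN and 9.81 for PCN, and fell in PN. Tnfsf9, the ligand of 4-1BB, fell from 20.4 to 8.28 and 7.13 CPM. Raet1 and Ulbp genes share sequence with relatives, so their levels are uncertain.

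Genes near the 4 loci were read for the same libraries within 250 kb. Ceacam1 had 12 neighbours in the tables, of which 3 were called higher and 6 lower in PN and 1 and 5 in PCN. Of the genes called on chromosome 7, 53.5% were lower in PN and 52.1% in PCN. Btn2a2 had 7 neighbours, of which 2 were called higher and 2 lower in PN and 1 and 3 in PCN. On chromosome 13, 50.7% of the genes called were lower in PN and 48.1% in PCN. Near Ceacam1, the calls of Dedd2 in both comparisons and of Gsk3a and Hnrnpul1 in PN were lost when single libraries were left out. Cnfn, a cornified envelope gene 92.0 kb from Ceacam1, fell from 105.4 to 14.8 and 18.5 CPM. Lipe, a lipase gene 63.0 kb from Ceacam1, fell from 32.6 to 14.5 and 14.7 CPM. Btn1a1 lay 11.8 kb downstream of Btn2a2, at chr13:23456992-23465901, and was the nearest listed gene to it. Abt1, 53.8 kb from Btn2a2, was higher in both. Nt5e had 3 neighbours, and Syncrip and Snhg5 rose in PN, by log2 fold changes of 0.45 and 0.57. Vtcn1 had 2: Trim45, 25.3 kb away, fell from 8.57 to 4.30 and 4.49 CPM, and Ttf2, 41.9 kb away, rose from 44.5 to 69.5 and 66.9 CPM.

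**Figure D4:**
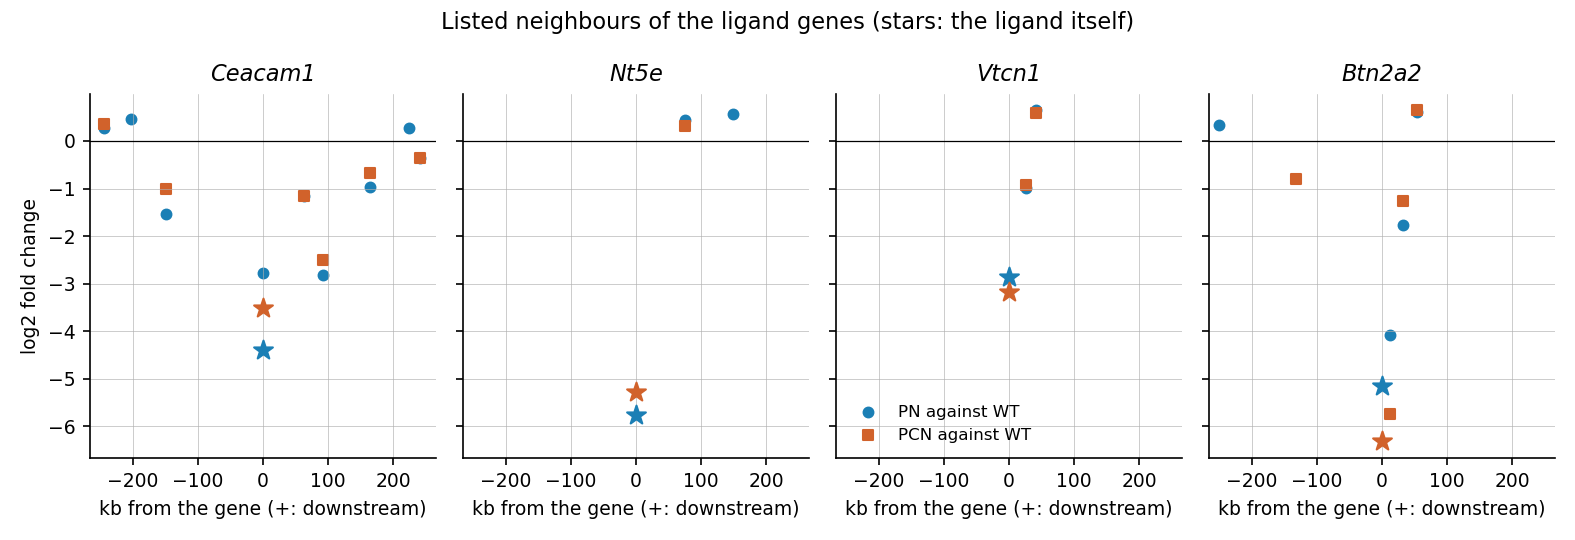
Log2 fold change in PN and PCN against the shared WT libraries for listed genes with a fitted value within 250 kb of each ligand gene, by distance in kb (positive values are downstream), with stars at 0 for the ligand itself. Cnfn and Lipe near Ceacam1, Btn1a1 near Btn2a2 and Trim45 near Vtcn1 lie below 0. Hnrnpul1 near Ceacam1, Abt1 near Btn2a2, Syncrip near Nt5e and Ttf2 near Vtcn1 lie above it.

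The genes most like each ligand were ranked by the root mean square difference of log2(CPM + 0.5), centred on WT, over the 9 libraries and 6300 protein-coding genes. For Nt5e they were Gabrp (0.16), Aldh1a7 (0.16) and Mal (0.20). Gabrp went from 346.0 to 9.90 and 13.6 CPM, and Aldh1a7 from 130.8 to 2.82 and 4.33. For Ceacam1 they were Pbp2 (0.25), Mall (0.28) and Adamtsl4 (0.29). For Vtcn1 they were Glb1l2 (0.25), AC133103.1 (0.25) and Serpinb2 (0.26), and for Btn2a2 2310007B03Rik (0.23), Qsox1 (0.24) and Oit1 (0.26). With an offset of 1 CPM, 1 of 3 was shared for Ceacam1 (Mall) and 0 of 3 for the others, so the ranking depends on the offset.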

How the data were processed

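The deposited data are 3 tables of genes with adjusted p under 0.05 in the authors' comparisons, 1 per pair of groups. Per the file headers they hold raw counts, the FPKM values, and the authors' log2 fold change and p-value. The deposited normalized signal equals each count over a size factor of its library and pair. CASAVA, DESeq and GRCm38 (mm10) come from the submitters' processing notes. Aligner, counter and annotation release: not given in the sources used here. Effective library sizes were recovered from counts, FPKM and gene lengths, and CPM uses them. The planned design called them library totals, but they are not whole numbers.

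Each pair was fitted with edgeR 4.0.16 (R 4.3.3, limma 3.58.1, quasi-likelihood, filterByExpr), with those sizes and the authors' size factors as offsets. Benjamini-Hochberg adjustment ran over 17165, 17300 and 14758 genes, as recovered from the authors' adjusted p, with a threshold of 0.05. The fit was tested on simulated data. DESeq2 1.42.0 was an alternative. Members and lists were chosen with earlier results of these data known. Named genes were the members, targeted genes, checkpoint ligands with values, up to 3 largest changes of each other list, neighbours within 250 kb and the nearest patterns. Other genes named were chosen after their values were seen. Same-numbered libraries deviated together in PN against WT (correlations 0.20, 0.12 and 0.21), not in the other pairs. Libraries of different number reached 0.28 (WT1 with PCN3), so these values do not establish a pairing. Any pairing would rest on these correlations, not on the labels.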

Additional observations from a re-analysis of the deposited data

How the results depend on the processing

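Genes called in the edgeR fits numbered 6248 in PN and 6316 in PCN, both against WT, and 3507 between PN and PCN. With the replicate number as a block they numbered 6277, 6075 and 3345, of which 6241, 6039 and 3339 were shared with the fits without it. No call changed among the single genes rechecked. Entpd2, Entpd3, Enpp1, Ada, Slc29a1, Acpp, Itga6 and Itgb4 were not among the genes rechecked, in this setting or in those below. TMM over the listed genes moved the median log2 fold change of all fitted genes by 0.07, 0.08 and -0.03. Under it 2 calls of the genes rechecked were lost, those of Dedd2 in PN and PCN against WT (edgeR adjusted p = 0.061 and 0.066). Leaving out each library in turn gave log2 ratios to WT of -4.56 to -4.28 for Ceacam1 in PN and -3.59 to -3.44 in PCN, -5.87 to -5.59 and -5.42 to -5.17 for Nt5e, -3.05 to -2.54 and -3.36 to -2.85 for Vtcn1, and -5.29 to -5.07 and -6.80 to -5.97 for Btn2a2. The log2 ratio of PCN to PN ranged from 0.76 to 1.04 for Ceacam1 and from -1.65 to -0.81 for Btn2a2. Depth limits Btn2a2 most, with 13 counts over PN and 6 over PCN. The WT libraries differed more from each other (chi-square per gene 10.6 to 30.3 between pairs) than the PN and PCN libraries did within their groups (3.56 to 6.21), and both comparisons with WT rest on them. Groups of 3 libraries are too small for a check of single outliers, and genes that the authors did not list were not analysed here.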
